A study of Sus scrofa with 24 samples.

Results

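The circadian clock genes of pig liver were examined in 24 RNAseq libraries, each from the liver of 1 pig. The list named 10 genes: DBP, TEF, PER1, PER2, PER3, NR1D1, NR1D2, CLOCK, CRY1 and NFIL3. Members were chosen by symbol, and 4 of the 10 were found among the 13463 genes of the count and log2 TPM tables: DBP, TEF, CLOCK and CRY1. The other 6 were not analysed here. All 4 genes passed the filter on low counts, which left 8279 genes for testing. Only DBP and TEF are clock outputs in the strict sense, while CLOCK and CRY1 are parts of the clock itself, so the 4 are called clock genes below.

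The pigs were hybrids of Large White, Landrace and Duroc. Of the libraries, 8 came from pigs given Sustanon, a mixture of testosterone esters, at 4 mg/kg body weight. A further 8 came from pigs given Myodin, a nandrolone ester, at 5 mg/kg, and 8 from untreated controls. The paper lists a further uncastrated boar under Sustanon and another among the controls, without a library here. In the trial, treated pigs had 5 intramuscular injections and were slaughtered 4 days after the last one. Per the paper, an earlier preclinical phase had included a single injection of the same preparation, with Myodin at a lower dose. Controls were kept in a separate room and each tested group in separate pens, so treatment cannot be told apart from room or pen. By label the libraries came from 8 castrated boars (3 control, 2 Myodin, 3 Sustanon), 9 sows (3 in each treatment) and 7 uncastrated boars (2 control, 3 Myodin, 2 Sustanon). The hour of slaughter and of the last meal is not given in the sources used here.

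The clock of a liver cell is a loop of transcription and repression. CLOCK pairs with ARNTL (BMAL1) and switches on the Per and Cry genes, and the PER and CRY proteins then repress that pair. DBP and TEF are PAR bZIP transcription factors driven by the same pair, and they carry the rhythm to genes of hepatic metabolism and detoxification. In liver, DBP and TEF peak together, and CLOCK and CRY1 peak in a different part of the day, so that 1 sample per animal records the hour of sampling together with any other difference. Feeding time and glucocorticoids can shift the clock of the liver.

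Total counts per library ran from 9267780 to 14017276. EIF1AY, a Y-linked gene, lay between 33.2 and 47.8 CPM (counts scaled to library size) in the libraries labelled as boars and at 3 counts or fewer in those labelled as sows, except in 3 control libraries. The library labelled control castrated boar 15 had 1 count of EIF1AY, and those labelled control sow 16 and control sow 18 had 476 and 434 counts. These 3 libraries were kept under their labels, and calls that were lost without them are named beside the results. Of 10 hepatocyte markers, 8 were in the tables and summed to 104415 to 215326 CPM, with overlapping ranges in all treatments and classes. Of 6 skeletal muscle markers 2 were in the tables and summed to 2.72 CPM at most. Fewer cells of a type and less RNA per cell cannot be told apart in bulk liver.

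DBP (ENSSSCG00000003148, Sscrofa11.1, chr6:53986955-53993044) is an output factor known for a large daily swing in rodent liver. Here it ranged from 7.83 to 60.9 CPM, a 7.78-fold span. The 3 castrated control libraries had 44.6, 35.3 and 25.6 CPM (animals 13, 14 and 15), the control sows had 16.2, 33.6 and 60.9 CPM (16, 17 and 18), and the control uncastrated boars had 7.83 and 11.7 CPM (25 and 27). The lowest 2 values of all 24 were those of the control uncastrated boars. Under Myodin, castrated boars 8 and 9 had 18.7 and 24.03 CPM, sows 10, 11 and 12 had 50.3, 58.1 and 58.3 CPM, and uncastrated boars 22, 23 and 24 had 14.7, 16.1 and 27.8 CPM. Under Sustanon, castrated boars 1, 2 and 3 had 34.9, 26.9 and 20.4 CPM, sows 4, 5 and 6 had 29.1, 39.5 and 19.7 CPM, and uncastrated boars 19 and 20 had 54.4 and 31.3 CPM. All 3 Myodin sows therefore lay above every Sustanon sow, as they did for 15.6% of all genes tested. Both Sustanon uncastrated boars lay above every other uncastrated boar, as they did for 6.63%. Both separations were picked out after the values were seen.

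TEF (ENSSSCG00000035152, chr5:7119354-7135171), the close relative of DBP, was the most abundant of the 4 and ranged from 68.8 to 244 CPM. The control libraries had 201, 205 and 158 CPM in castrated boars 13, 14 and 15, 125, 196 and 175 CPM in sows 16, 17 and 18, and 68.8 and 104 CPM in uncastrated boars 25 and 27. The Myodin libraries had 99.9 and 179 CPM in castrated boars 8 and 9, 165, 213 and 244 CPM in sows 10, 11 and 12, and 105, 77.1 and 94.3 CPM in uncastrated boars 22, 23 and 24. The Sustanon libraries had 148, 147 and 139 CPM in castrated boars 1, 2 and 3, 114, 148 and 123 CPM in sows 4, 5 and 6, and 123 and 111 CPM in uncastrated boars 19 and 20. The Sustanon values were packed between 111 and 148 CPM, inside the range of both other treatments. On the log2 scale their SD was 0.17 (n = 8), against 0.56 in controls and 0.61 under Myodin, a difference in spread that was not tested.

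CLOCK (ENSSSCG00000008909, chr8:54793323-54910192), the activator of the loop, was nearly flat between 28.0 and 43.2 CPM. Its medians were 34.6 CPM in controls (31.7 to 39.9), 35.4 CPM under Myodin (28.0 to 42.3) and 39.8 CPM under Sustanon (32.4 to 43.2). CRY1 (ENSSSCG00000000164, chr5:13275265-13429566), a repressor of the loop, was the least abundant and ranged from 3.75 to 28.7 CPM, with at least 35 counts in every library. The Sustanon sows 4, 5 and 6 had 17.3, 28.7 and 20.7 CPM of CRY1, and the Myodin sows 10, 11 and 12 had 3.75, 4.22 and 6.04 CPM. The control sows 16, 17 and 18 fell between or among them with 19.3, 11.07 and 6.25 CPM. Every Sustanon sow thus lay above every Myodin sow, a separation picked out after the values were seen. Its share over all genes was not computed, and in the other direction the share was 15.6%. In castrated boars CRY1 ran from 6.09 to 15.9 CPM and in uncastrated boars from 7.21 to 19.4 CPM, with the treatments mixed.

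**Figure D1:**
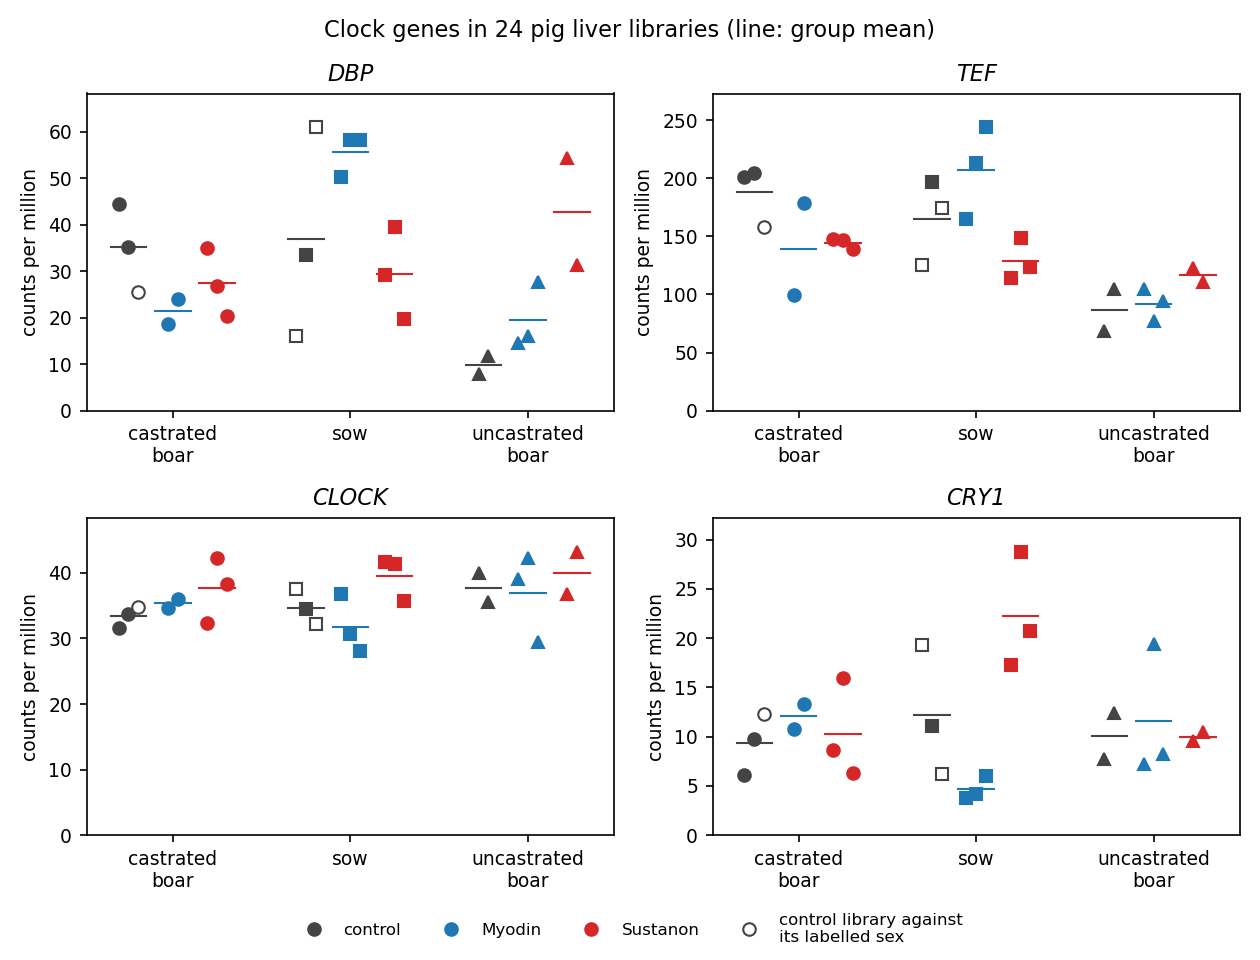
CPM (y axis, linear from 0) of DBP, TEF, CLOCK and CRY1 in the 24 libraries, grouped on the x axis by class and coloured by treatment, with a line at each group mean and open symbols for the 3 control libraries whose EIF1AY count goes against their labelled sex. DBP and TEF are lowest in uncastrated control boars, at 7.83 and 68.8 CPM, and CRY1 is lowest in Myodin sows, at 3.75 to 6.04 CPM.

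Per unit of transcript length the order was TEF, DBP, CLOCK and CRY1. TEF averaged 57.0 ± 18.3 TPM (length-scaled transcript abundance, SD, n = 24), DBP 28.8 ± 14.8 TPM, CLOCK 10.7 ± 1.55 TPM and CRY1 4.91 ± 2.41 TPM. Neighbours in that order overlapped, since DBP reached 59.1 TPM while TEF fell to 30.1 TPM, and CRY1 reached 11.6 TPM while CLOCK fell to 7.84 TPM. The SD of log2 CPM over the 24 libraries was 0.78 for DBP, 0.73 for CRY1, 0.47 for TEF and 0.17 for CLOCK, against a median of 0.31 over all 8279 genes. The SD of DBP was larger than that of 93.8% of genes, that of CRY1 larger than 92.4%, and that of CLOCK larger than 8.90%. The order of the spreads stayed as it was within treatments, where the SD was 0.80 for DBP, 0.69 for CRY1, 0.49 for TEF and 0.16 for CLOCK. Log2 CPM of the 4 genes hardly followed log2 total counts, with Pearson's r between -0.06 and 0.28 as a description over 24 libraries.

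The 2 treatments were each compared with the controls in 1 edgeR quasi-likelihood fit of all 24 libraries, with p-values adjusted by Benjamini-Hochberg over the 8279 genes and a call at an adjusted p under 0.05. For Sustanon, 0 of the 4 clock genes were called, where 5.07% of all genes were (420 genes). Without the 3 control libraries at odds with their labelled sex, 0 of 8434 genes were called in this comparison. DBP had a log2 fold change of 0.12 (SE 0.36, adjusted p = 0.899), TEF of -0.23 (SE 0.22, adjusted p = 0.647), CLOCK of 0.15 (SE 0.09, adjusted p = 0.337) and CRY1 of 0.47 (SE 0.33, adjusted p = 0.476). Single libraries left out gave 0.26, without Sustanon sow 5, to 0.65 for CRY1. Of the 8 Sustanon libraries 4 lay above every control for CLOCK, and 2 did for CRY1. The median log2 fold change was 0.14 over the 4 and -0.01 over all genes. For DBP the direction turned without the uncastrated boars, to -0.35 (edgeR, adjusted p = 0.599).

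For Myodin, 0 of the 4 were called, and the percentage of all genes called was 0 as well, although 597 genes had an unadjusted p under 0.05 by edgeR and DESeq2 called 1. The log2 fold changes were 0.18 for DBP (SE 0.36), -0.07 for TEF (SE 0.22), -0.01 for CLOCK (SE 0.09) and -0.21 for CRY1 (SE 0.33), with adjusted p-values from 0.948 to 0.996 by edgeR. Single libraries left out gave 0.023 to 0.43 for DBP and -0.46 to -0.034 for CRY1. TEF under Myodin spread beyond the controls at the top, with 2 of 8 libraries above every control.

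Testosterone and nandrolone differ in that nandrolone lacks a methyl group of the steroid skeleton. The doses given were not the same and each tested group had separate pens, so agent, dose and pen cannot be told apart. The values of the 2 agents therefore stand side by side. In the same fit 0 of the 4 clock genes differed between Sustanon and Myodin, against 0.664% of all genes (55 genes). The log2 differences were 0.68 for CRY1 (95% interval 0.01 to 1.36, unadjusted p = 0.0479, edgeR adjusted p = 0.271), 0.17 for CLOCK (95% interval -0.01 to 0.35), -0.16 for TEF (-0.62 to 0.30) and -0.06 for DBP (-0.80 to 0.68). A p that misses the threshold does not show that the agents act alike, and the intervals include differences of either sign for all but CRY1. For CRY1 the means differed in this direction in sows, at 22.3 ± 5.87 CPM under Sustanon (SD, n = 3) and 4.67 ± 1.21 CPM under Myodin (n = 3). They lay the other way in castrated boars, at 10.3 and 12.1 CPM, and in uncastrated boars, at 10.01 and 11.6 CPM. The sow groups did not overlap, and the share of all genes separating in that direction was not computed. The CRY1 difference was 0.47 to 0.93 with single libraries left out and 1.07 without uncastrated boars.

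**Figure D2:**
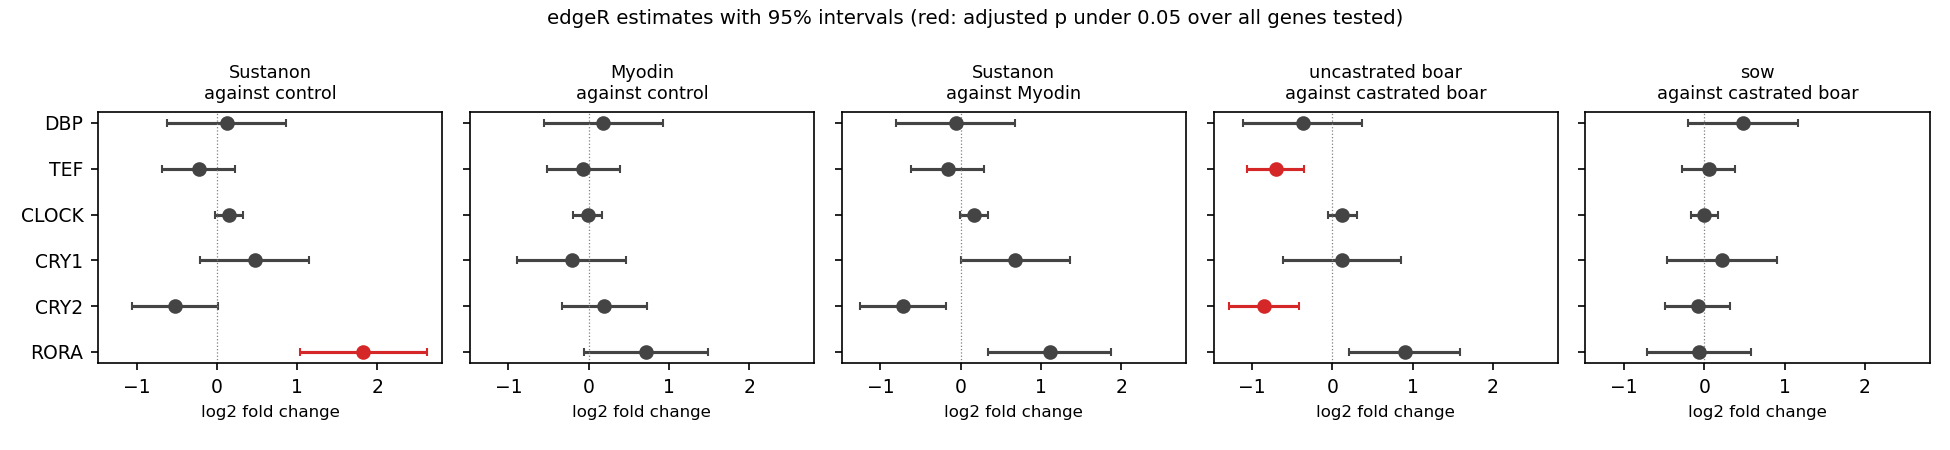
Log2 fold changes from edgeR (x axis, 0 marked) with 95% intervals for DBP, TEF, CLOCK, CRY1, CRY2 and RORA in 5 comparisons, drawn in red where the adjusted p over all genes was under 0.05. TEF and CRY2 are red in uncastrated against castrated boars, at -0.71 and -0.85, and RORA is red in Sustanon against control, at 1.82.

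Class was compared with treatment as a term in the fit. TEF was lower in uncastrated than in castrated boars by 0.71 on the log2 scale, a fold of 0.612 (SE 0.17, edgeR adjusted p = 0.0325). It was the only 1 of the 4 clock genes called, where 1.88% of all genes were called (156 genes) and 1.05% were called lower. Castrated boars had 160 ± 34.7 CPM of TEF (SD, n = 8) and uncastrated boars 97.6 ± 19.03 CPM (n = 7). Of the castrated boars, 7 of 8 lay above every uncastrated boar, and the exception was Myodin castrated boar 8 with 99.9 CPM. Within controls the uncastrated boars had 68.8 and 104 CPM against 158 to 205 CPM in castrated ones, within Sustanon 111 and 123 against 139 to 148 CPM, and within Myodin 77.1 to 105 against 99.9 and 179 CPM. The groups thus did not overlap under control, where uncastrated boars lay wholly lower for 18.8% of all genes, or under Sustanon, where they did for 10.6%, and they overlapped under Myodin. Summed hepatocyte markers (8 of 10 in the tables) ran from 140398 to 215326 CPM in castrated and from 104415 to 168294 CPM in uncastrated boars, and summed leukocyte markers (7 of 10) from 272 to 411 CPM and from 317 to 526.2 CPM. Their part in the difference was not tested.

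The call for TEF stood near its threshold. Leaving out 1 library at a time gave log2 fold changes of -0.82 to -0.62 with edgeR adjusted p-values of 0.0163 to 0.0748, and the call was lost in 7 of 24 cases: without Myodin castrated boar 9, Myodin uncastrated boar 23 or 24, control castrated boar 13 or 14, or control uncastrated boar 25 or 27. Without the 3 control libraries at odds with their labelled sex the value was -0.70 (edgeR adjusted p = 0.0537). The call for TEF was also lost by limma (-0.62, adjusted p = 0.0849), with no treatment term (-0.71, edgeR adjusted p = 0.0938) and in control libraries only (-1.12, edgeR adjusted p = 0.0699). DBP had the same sign with -0.37 (SE 0.36, edgeR adjusted p = 0.633). It was -0.74 to -0.18 with single libraries left out and -1.85 in control libraries only (edgeR adjusted p = 0.118). CLOCK and CRY1 had 0.12 each (adjusted p = 0.499 and 0.896). Between sows and castrated boars 0 of the 4 were called, where the percentage of all genes called was 0 by edgeR, with 816 genes at an unadjusted p under 0.05 and 22 called by DESeq2. There DBP had 0.48 (SE 0.33, edgeR adjusted p = 0.665), and the other 3 lay between 0.00 and 0.22.

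Whether the effect of Sustanon depended on castration was tested as a contrast of the 9 groups, the uncastrated boars against the mean of castrated boars and sows. DBP had the largest value of the 4, 2.48 on the log2 scale (SE 0.55, unadjusted p = 0.000253), which missed the threshold over all genes (edgeR adjusted p = 0.126). The 2 Sustanon uncastrated boars had 54.4 and 31.3 CPM of DBP against 7.83 and 11.7 CPM in the 2 controls, a separation in this direction that 25.1% of all genes showed. The Sustanon and control ranges overlapped in castrated boars (20.4 to 34.9 against 25.6 to 44.6 CPM) and in sows (19.7 to 39.5 against 16.2 to 60.9 CPM). DESeq2 gave an adjusted p of 0.00485, and edgeR without the 3 control libraries at odds with their labelled sex gave 2.51 with an adjusted p of 0.0661. Leaving out single libraries gave edgeR adjusted p-values from 0.0278, without control sow 16, to 0.672, without Sustanon uncastrated boar 19. TEF had the same sign with 0.80 (SE 0.31, adjusted p = 0.540), so 0 of 4 were called by edgeR, against 0.0604% of all genes (5 genes). For Myodin the contrast was 1.06 for DBP (SE 0.53, edgeR adjusted p = 0.420), and 0 of 4 were called against 0.109% (9 genes).

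How the 4 genes moved together from library to library was examined next. Over the 24 libraries 4 of 6 pairs had a permutation p under 0.05 after adjustment over the 6. DBP and TEF rose and fell together, with Pearson's r = 0.75 (permutation adjusted p = 0.00012) and Spearman's rho = 0.72 (adjusted p = 0.0009). CLOCK and CRY1 did so too, with r = 0.53 (permutation adjusted p = 0.0145) and rho = 0.51 (adjusted p = 0.0250). DBP ran against CLOCK with r = -0.46 (permutation adjusted p = 0.0349) and rho = -0.47 (adjusted p = 0.0271), and TEF ran against CLOCK with r = -0.54 (permutation adjusted p = 0.0145) and rho = -0.53 (adjusted p = 0.0250). DBP with CRY1 gave r = -0.38 (permutation adjusted p = 0.0835) and rho = -0.47 (adjusted p = 0.0271), and TEF with CRY1 gave r = -0.33 (adjusted p = 0.112) and rho = -0.34 (adjusted p = 0.108). Every sign was therefore positive within the 2 output factors and within the 2 loop genes, and negative between them.

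Without the 2 libraries farthest from the median of the first gene of a pair, r was 0.67 for DBP with TEF, 0.51 for CLOCK with CRY1, -0.48 for DBP with CLOCK and -0.45 for TEF with CLOCK (permutation p = 0.00076, 0.0150, 0.0242 and 0.0359). After centring within the 3 treatments, r was 0.80 for DBP with TEF, 0.44 for CLOCK with CRY1, -0.58 for DBP with CLOCK and -0.57 for TEF with CLOCK, all with adjusted permutation p under the threshold. After centring within the 9 groups of treatment and class, DBP had r = 0.57 with TEF (permutation adjusted p = 0.0222) and -0.53 with CLOCK (adjusted p = 0.0258). The other 4 pairs did not pass. The permutation shuffled the centred values freely, without allowing for the group means removed. Permutation p-values after either centring are therefore too small, most of all for the 9 groups, and no call rests on them. On log2(TPM + 1) only DBP with TEF passed, with r = 0.76. With the 3 control libraries at odds with their labelled sex left out, 3 of the 6 pairs passed, and DBP with CLOCK, at r = -0.43 (permutation adjusted p = 0.0788), did not. Single libraries left out took the permutation adjusted p up to 0.102 for DBP with CLOCK and 0.0620 for TEF with CLOCK, and left it at 0.0447 or lower for the other 2 called pairs.

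The pairs were also correlated within each treatment. Over the 8 controls, DBP with TEF gave r = 0.92 (exact permutation p = 0.00136, adjusted over 18 relations p = 0.0123) and rho = 0.83 (exact p = 0.0154, adjusted p = 0.0923), and DBP with CLOCK gave r = -0.92 (exact p = 0.00102, adjusted p = 0.0123) and rho = -0.95 (exact p = 0.00114, adjusted p = 0.0205). TEF with CLOCK gave r = -0.87 (exact p = 0.00454, adjusted p = 0.0272) and rho = -0.86 (exact p = 0.0107, adjusted p = 0.0923). Without control uncastrated boars 25 and 27 these 3 values of r were 0.73, -0.94 and -0.77. Under Myodin DBP with TEF gave r = 0.84 (exact p = 0.0211, adjusted p = 0.0950) and rho = 0.71 (exact p = 0.0576, adjusted p = 0.207). Under Sustanon DBP with TEF gave r = 0.00 (exact p = 0.993, adjusted p = 0.993) and rho = 0.12 (exact p = 0.793, adjusted p = 0.935), and DBP with CLOCK gave r = -0.04 (exact p = 0.915, adjusted p = 0.993) and rho = -0.05 (exact p = 0.935, adjusted p = 0.935). Of the 6 pairs, 3 passed in controls by r, 0 under Myodin and 0 under Sustanon. The difference between treatments was not tested, and the Sustanon libraries also spanned the narrowest range of TEF. Of the 8 controls, 3 are the libraries at odds with their labelled sex, and no correlation was computed without them, since at least 6 libraries were required.

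**Figure D3:**
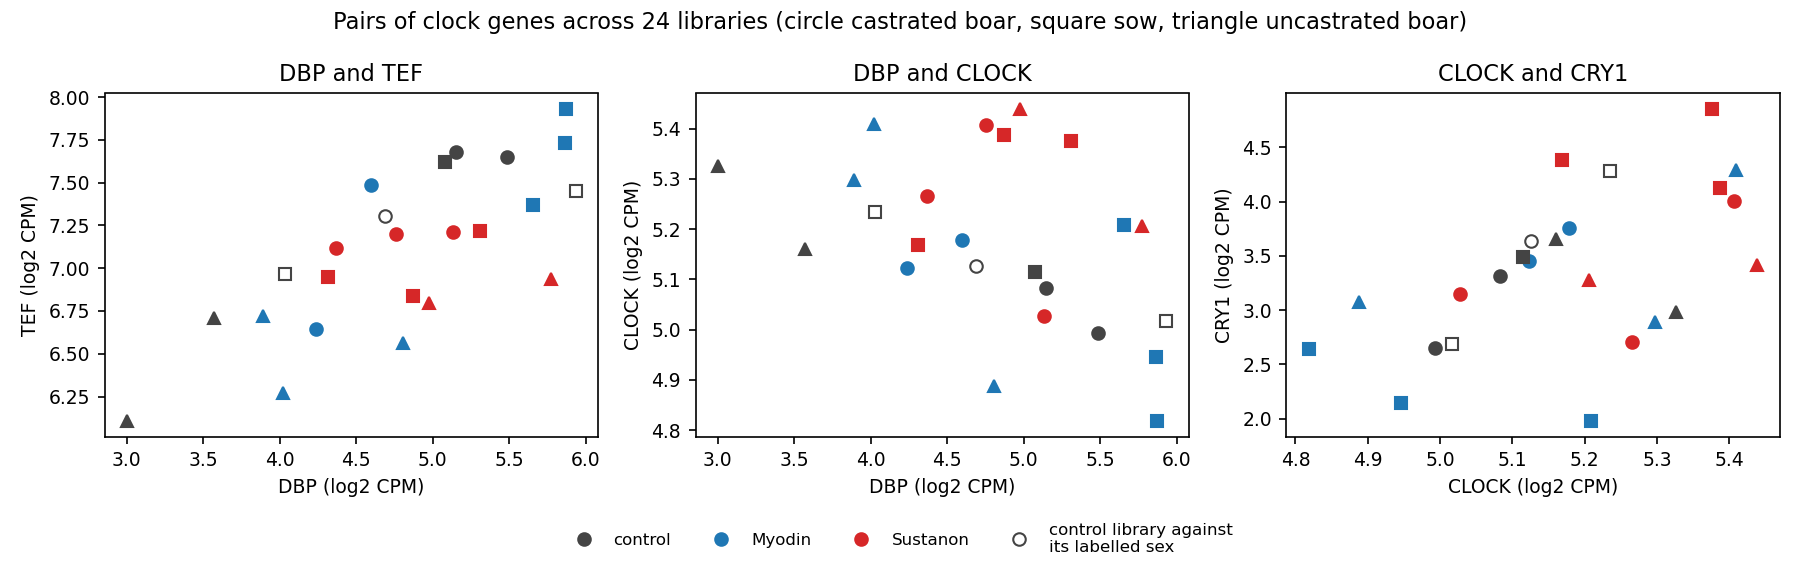
Log2 CPM of DBP against TEF, DBP against CLOCK and CLOCK against CRY1, 1 symbol per library, with treatment as colour, class as shape and open symbols for the 3 libraries at odds with their labelled sex. DBP and TEF rise together over all 24 libraries (r = 0.75), while the 8 Sustanon libraries form a flat band (r = 0.00).

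A clock phase difference was computed for each library as the mean z-score of DBP and TEF minus that of CLOCK and CRY1. It was highest in Myodin sow 12 (3.10), Myodin sow 11 (2.87) and control castrated boar 13 (2.04), and lowest in Myodin uncastrated boar 23 (-2.70) and control uncastrated boar 25 (-2.40). The 3 Myodin sows lay between 1.69 and 3.10, and the 3 Sustanon sows lay between -1.38 and -1.16. The mean was 0.11 ± 1.68 in controls (SD, n = 8), 0.45 ± 2.01 under Myodin (n = 8) and -0.57 ± 0.86 under Sustanon (n = 8). By class it was 0.29 ± 1.02 in castrated boars (n = 8), 0.59 ± 1.90 in sows (n = 9) and -1.09 ± 1.23 in uncastrated boars (n = 7). These differences were not tested, since the score is made of the same 4 genes.

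**Figure D4:**
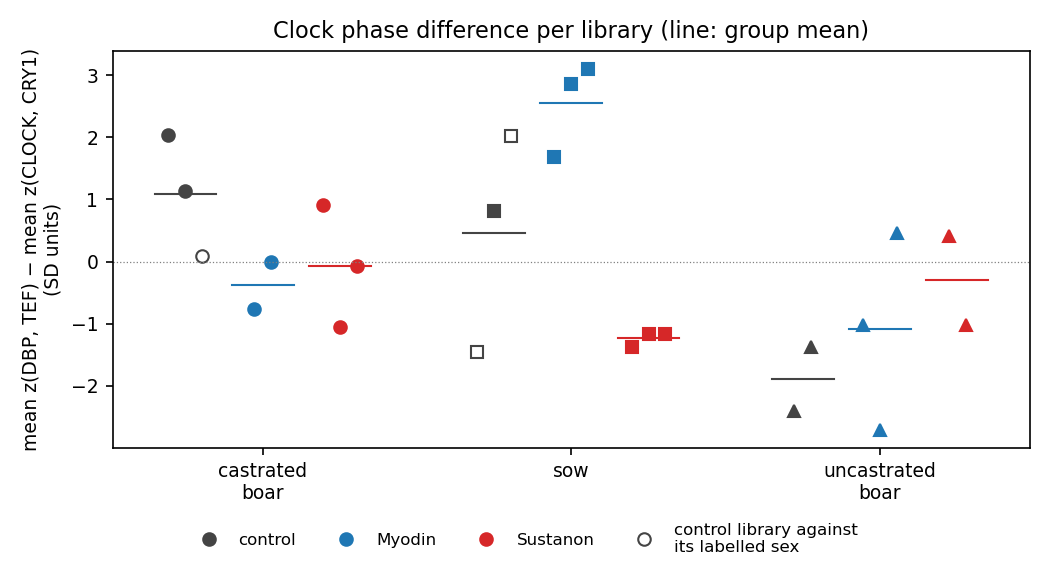
Clock phase difference of each library (y axis, SD units, dotted line at 0), the mean z-score of DBP and TEF minus the mean z-score of CLOCK and CRY1, by class on the x axis and by treatment as colour, with lines at group means. Myodin sows sit at 1.69 to 3.10, Sustanon sows at -1.38 to -1.16, and both control uncastrated boars sit below -1.

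Other core clock genes were compared next; 8 of 14 listed were tested. The symbol of the row listed as TIMELESS is the file's own and was not matched to the reference, and its level in liver was high, so which gene it counts is uncertain. RORA (chr1:110719004-111482807), a nuclear receptor that activates ARNTL, was higher under Sustanon than in controls by 1.82 on the log2 scale, a fold of 3.54 (SE 0.38, edgeR adjusted p = 0.0114). The Sustanon libraries ran from 29.6 to 192 CPM with a median of 47.9 CPM, and the controls from 15.8 to 22.7 CPM with a median of 19.6 CPM. All 8 Sustanon libraries lay above all 8 controls, a separation that 0.362% of all genes showed in this direction. Without the 3 control libraries at odds with their labelled sex the log2 fold change was 1.79 and the edgeR adjusted p was 0.116. Single libraries left out gave 1.40 to 1.94 with adjusted p-values of at most 0.0311. Under Myodin RORA had 0.71 (SE 0.38, edgeR adjusted p = 0.719), with 91.8 CPM in uncastrated boar 23 and 12.2 CPM in sow 11.

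CRY2 (chr2:16587101-16620380), the second cryptochrome, was lower in uncastrated than in castrated boars by 0.85 on the log2 scale, a fold of 0.554 (SE 0.21, edgeR adjusted p = 0.0344). Uncastrated boars ran from 22.8 to 60.6 CPM with a median of 36.0 CPM, and castrated boars from 47.9 to 106 CPM with a median of 57.3 CPM. Of the 7 uncastrated boars 6 lay below every castrated boar. Leaving out single libraries gave edgeR adjusted p-values from 0.0192 to 0.0783, and the call was lost in 8 of 24 cases: without Sustanon castrated boar 3, Myodin castrated boar 9, Myodin uncastrated boar 23 or 24, control castrated boar 13 or 14, or control uncastrated boar 25 or 27. Without the 3 control libraries at odds with their labelled sex it was -0.89 (edgeR adjusted p = 0.0328). The call was also lost by limma (-0.77, adjusted p = 0.0868), with no treatment term (-0.80, edgeR adjusted p = 0.177) and in control libraries only (-0.84, edgeR adjusted p = 0.226). Between treatments CRY2 was at -0.52 for Sustanon against control (SE 0.26, edgeR adjusted p = 0.268) and at 0.19 for Myodin (SE 0.26, adjusted p = 0.941). ARNTL, NPAS2, BHLHE41, CIART and TIMELESS were not called in any of the 7 comparisons. Of the 8 tested, 1 was called for Sustanon, where 5.07% of all genes were, 1 for uncastrated against castrated boars, where 1.88% were, and 0 in the others.

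**Figure D5:**
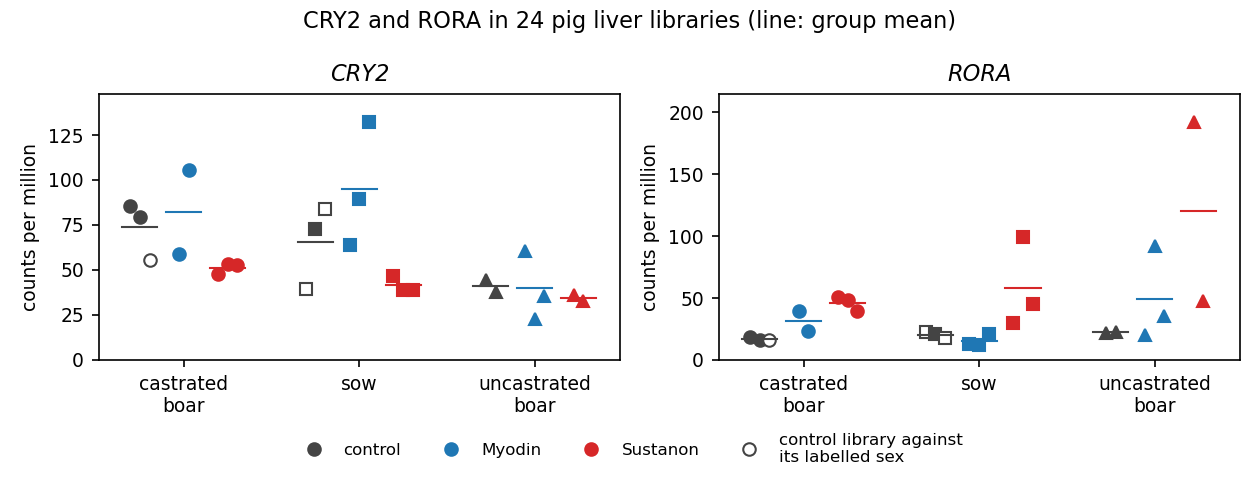
CPM (y axis, linear from 0) of CRY2 and RORA in the 24 libraries, by class on the x axis and treatment as colour, with lines at group means and open symbols for the 3 libraries at odds with their labelled sex. Every Sustanon library has at least 29.6 CPM of RORA while the controls stop at 22.7 CPM, and CRY2 is lowest in Myodin uncastrated boar 23 at 22.8 CPM.

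The 4 clock genes were also correlated with these 8 genes, which gave 32 pairs, of which 6 had a permutation p under 0.05 after adjustment over the 32. TEF followed CRY2 with r = 0.80 (permutation adjusted p = 0.00032) and rho = 0.79 (adjusted p = 0.00016), and BHLHE41, a repressor of the loop, with r = 0.75 (permutation adjusted p = 0.00064) and rho = 0.80 (adjusted p = 0.00016). DBP followed BHLHE41 with r = 0.66 (permutation adjusted p = 0.00469) and rho = 0.81 (adjusted p = 0.000213). CRY2 ran against CLOCK with r = -0.59 (permutation adjusted p = 0.0171) and rho = -0.54 (adjusted p = 0.0403), and against CRY1 with r = -0.54 (permutation adjusted p = 0.0456) and rho = -0.52 (adjusted p = 0.0530). RORA followed CRY1 with r = 0.52 (permutation adjusted p = 0.0482) and rho = 0.56 (adjusted p = 0.0403). Without the 2 libraries farthest from the median of the clock gene these values of r were 0.81, 0.79, 0.72, -0.66, -0.54 and 0.36, and the last had a permutation p of 0.0974, so by r the relation of RORA with CRY1 did not pass without Sustanon sow 5 and Myodin sow 10. Permutation p-values after centring are too small here as well, since the group means removed were not allowed for. Within the 9 groups, TEF had r = 0.72 with CRY2 (permutation adjusted p = 0.00144) and r = 0.68 with BHLHE41 (adjusted p = 0.00288). The other 4 of the 6 pairs did not pass: DBP with BHLHE41 (r = 0.50, permutation adjusted p = 0.0846), CLOCK with CRY2 (r = -0.32, adjusted p = 0.348), CRY1 with CRY2 (r = -0.48, adjusted p = 0.0885) and CRY1 with RORA (r = 0.46, adjusted p = 0.104). The last 3 did not pass after centring within treatments either (permutation adjusted p = 0.0648 to 0.0664). CRY1 with CRY2 did not pass without the 3 control libraries at odds with their labelled sex (r = -0.50, permutation adjusted p = 0.0711). On log2(TPM + 1) CLOCK with CRY2 (r = -0.35, permutation adjusted p = 0.161) and CRY1 with RORA (r = 0.50, adjusted p = 0.0793) did not pass. Leaving out single libraries took the permutation adjusted p up to 0.0805 for CLOCK with CRY2, 0.0863 for CRY1 with CRY2 and 0.109 for CRY1 with RORA. Within each treatment, r of the 6 pairs in the order first given was not tested. It was 0.82, 0.86, 0.85, -0.83, -0.67 and 0.31 in controls. Under Myodin it was 0.91, 0.84, 0.81, -0.51, -0.49 and 0.89, and under Sustanon 0.57, 0.07, 0.59, -0.12, -0.22 and 0.04. CIART, a transcriptional repressor of the loop, reached r = 0.83 with DBP within the 9 groups (permutation adjusted p = 0.00032) against 0.44 without centring (adjusted p = 0.0854).

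The other genes of the liver were compared with the phase difference in an edgeR fit with treatment as a term, leaving out the 4 clock genes. Of 8275 genes, 244 (2.95%) followed it, 104 upward and 140 downward. Among 57 listed genes of the clock, its outputs, feeding, glucocorticoids, handling and temperature, 4 rose and 4 fell with it. CRY2 rose by 0.26 log2 units per unit of phase difference (SE 0.05, edgeR adjusted p = 0.0110) and BHLHE41 by 0.26 (SE 0.06, adjusted p = 0.0151). PNPLA2, the triglyceride lipase of fat droplets, rose by 0.23 (adjusted p = 0.0100), and EGR1, an immediate early gene, by 0.24 (adjusted p = 0.0107). The glucocorticoid-responsive ZBTB16 fell by 0.44 (SE 0.08, edgeR adjusted p = 0.00505) and FKBP5, a chaperone of steroid receptors, by 0.35 (SE 0.07, adjusted p = 0.0151), so 2 of 7 genes of that list fell and 0 rose. AMD1 (polyamine synthesis) fell by 0.21 and CDKN1A (the cell cycle inhibitor p21) by 0.28, with edgeR adjusted p-values of 0.0166 and 0.0278. Of the feeding list 0 of 7 followed the phase difference, and of the temperature list 0 of 5.

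The count of genes that followed the phase difference depended on few animals. With class as a further term it was 28, without the 3 control libraries at odds with their labelled sex it was 102, and leaving out single libraries gave 27, without Myodin uncastrated boar 23, to 365, without Sustanon uncastrated boar 19. It was 39 without Myodin sow 11, 119 without Myodin sow 12, 150 without Myodin uncastrated boar 22, 154 without Myodin sow 10, and 161 without control sow 18 or control uncastrated boar 25. With class as a further term, 2 of the 8 listed genes kept their call, PNPLA2 (0.25, edgeR adjusted p = 0.0410) and AMD1 (-0.24, adjusted p = 0.0393). CRY2, BHLHE41, ZBTB16, FKBP5, EGR1 and CDKN1A did not, with edgeR adjusted p-values of 0.109, 0.103, 0.0564, 0.115, 0.115 and 0.160, so that 0 of 7 glucocorticoid-responsive genes were called there. Without Myodin uncastrated boar 23 the calls of FKBP5, CRY2, PNPLA2, AMD1 and CDKN1A were lost, without Myodin sow 11 those of EGR1, AMD1 and CDKN1A, and without Myodin sow 12 those of BHLHE41 and CDKN1A. CDKN1A also lost its call without control uncastrated boar 25 and without the 3 control libraries at odds with their labelled sex.

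Of 7257 named genes, those with the highest Pearson's r to DBP over the 24 libraries were OTUD5 (0.81), YPEL5 (0.81), MARF1 (0.79), TMEM39B (0.78) and GIGYF1 (0.77), and those with the lowest were MPHOSPH10 (-0.80), SFPQ (-0.78) and GAR1 (-0.75). For CLOCK they were RAPGEF2 (0.80), ERCC4 (0.79), RIC8B (0.79), BRWD3 (0.79) and SLC9A7 (0.78) at the top, and TRIP6 (-0.81), CHID1 (-0.78) and CD81 (-0.78) at the bottom. These are the extremes of many correlations and are given as a description without a test.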

How the data were processed

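Liver RNA of 24 pigs was measured by stranded poly-A RNAseq, 1 library per pig. Per the study's methods, reads were trimmed with Skewer and aligned with STAR 2.5 in docker4seq, and the labels name Sscrofa11.1. The counting tool, and whether it used strand or split reads of similar genes, is not given in the sources used here. The authors deposited raw counts per gene and log2(TPM + 1) values of 13463 genes, 3779 of them without a symbol. Counts summed to between 9267780 and 14017276 per library, and back-converted TPM to 989763 to 994408. A code in the column header of Sustanon sow 6 is that of another group, and the library was kept under its label.

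Counts were filtered (filterByExpr by treatment, 8279 genes), TMM-normalised and tested with edgeR 4.0.16 in R 4.3.3, quasi-likelihood F test, two-sided, with Benjamini-Hochberg adjustment over all tested genes and a call at an adjusted p under 0.05. DESeq2 1.42.0, limma 3.58.1 on the deposited log2 values, RLE scaling, no filter, a fold threshold, covariates and libraries left out were alternatives. Intervals are 95% from the edgeR standard error. Log2 CPM used a prior count of 2. Correlations used 100000 permutations, or all pairings for 8 libraries. After centring, the permutations did not allow for the group means removed, so those p-values are too small. The edgeR, DESeq2 and limma code was tested on simulated data. Pigs are the replicates. Coordinates are those of RefSeq for Sscrofa11.1. Named genes were the listed members in the tables, core clock genes (1 of the 8 tested is not reported here by name), listed genes that were called, and for DBP and CLOCK the 5 genes with the highest and the 3 with the lowest r. The members and lists were chosen with earlier results of these data known. The phase difference, its covariate fits and the core clock correlations were added after the data were seen.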

Additional observations from a re-analysis of the deposited data

How the results depend on the processing

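Of the 4 clock genes, 0 were called under any alternative run for Myodin against control, Sustanon against Myodin, sow against castrated boar and the Myodin by castration interaction. For Sustanon against control the count was 0, and 1 with the phase difference as a covariate. That covariate is made from the 4 clock genes themselves, so for them, and for genes that move with them, its fit conditions on the outcome, and its values and counts, here and below, are listed only for completeness and support nothing. For uncastrated boar against castrated boar it was 1. It was 0 when a log2 fold change of 1 or more in size was also required, without the 3 control libraries at odds with their labelled sex, by limma, with no treatment term, in control libraries only and with the phase difference, and 0 to 1 with single libraries left out. For the Sustanon by castration interaction it was 0, then 1 by DESeq2, and 0 to 1 with single libraries left out. Genes with a slope on the clock phase difference numbered 428 by DESeq2, 28 with class as a covariate, 102 without the 3 libraries, and 27 to 365 with single libraries left out. Member correlation, 4 pairs, gave 3 without the 3 libraries, 1 pair on log2(TPM + 1), 2 within the 9 groups (by p-values that are too small) and 2 (without Myodin sow 12) to 6 (without control uncastrated boar 25) with single libraries left out. Member to core clock correlation gave 3, without Myodin uncastrated boar 23, to 13, without Myodin uncastrated boar 24. The cause was not tested for any of these shifts, except that fewer libraries entered the fits without libraries and in controls only.

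The direction reversed for values that were not called. DBP in Sustanon against control was -0.35 without uncastrated boars and -0.034 to 0.35 with single libraries left out. TEF in Sustanon against control was 0.021 with the phase difference. TEF in Myodin against control was 0.0060 with class as a covariate, 0.024 without uncastrated boars and -0.20 to 0.028 with single libraries left out. CLOCK in Myodin against control was 0.0078 with the phase difference and -0.060 to 0.034 with single libraries left out. DBP in Sustanon against Myodin was 0.11 on log2(TPM + 1) by limma and by the exact permutation test, 0.099 with class, 0.57 with the phase difference and -0.22 to 0.097 with single libraries left out. TEF in Sustanon against Myodin was 0.20 with the phase difference. In uncastrated boar against castrated boar the phase difference gave 0.16 for DBP, -0.0076 for CLOCK and -0.48 for CRY1, and CRY1 was -0.16 to 0.30 with single libraries left out. CLOCK in sow against castrated boar was -0.0014 with RLE, -0.0047 by DESeq2, -0.00056 with no filter, -0.020 by limma, -0.0044 with no treatment term and -0.038 to 0.025 with single libraries left out. TEF there was -0.18 in control libraries only and -0.055 to 0.11 with single libraries left out. CLOCK was -0.22 to 0.013 in the Sustanon by castration interaction with single libraries left out. In the Myodin by castration interaction CLOCK was 0.0028 with RLE, 0.0043 by DESeq2, 0.0068 with no filter and -0.12 to 0.13 with single libraries left out, and TEF was -0.12 to 0.48. The cause was not tested.

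Over all genes, 420 were called for Sustanon against control, and 129 with the fold required, 272 without control castrated boar 15, 0 without the 3 libraries (1199 at an unadjusted p under 0.05), 636 by DESeq2 and 198 to 613 with single libraries left out. For Sustanon against Myodin 55 were called, and 17 with the fold required, 29 without the 3 libraries, 283 by DESeq2, 36 with no filter, 390 with class, 9 with both groups alone, 339 without uncastrated boars, 10 with the phase difference and 0 to 541 with single libraries left out. For uncastrated against castrated boars 156 were called, and 56 with the fold required, 370 by DESeq2, 3 with no treatment term, 83 in controls only, 69 with the phase difference and 83 to 295 with single libraries left out. Myodin against control gave 0, with 1 by DESeq2 and 8 without uncastrated boars, and sows against castrated boars gave 0, with 22 by DESeq2 and 14 without the 3 libraries. The Sustanon by castration interaction gave 5, with 41 by DESeq2, 0 without the 3 libraries and 0 to 11 with single libraries left out. That of Myodin gave 9, with 96 by DESeq2, 5 without boar 15, 1 without the 3 libraries and 3 to 202 with single libraries left out.

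No paired analysis was possible because each pig has its own number, and the groups share none. Groups of treatment and class held 2 or 3 pigs, and leaving out 1 of 2 leaves a single library assumed to vary like the others. CRY1, with 35 counts in the library where it was lowest, was the least precisely counted of the 4 clock genes. The hour of slaughter is not given in the sources used here, so its part in any difference was not tested.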

Other observations

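Outside the core clock, few listed genes passed the test. NR4A1, an orphan nuclear receptor and immediate early gene, was lower in uncastrated than in castrated boars by 1.91 on the log2 scale, a fold of 0.265 (SE 0.27, edgeR adjusted p = 0.00216). The uncastrated boars ran from 3.55 to 9.35 CPM with a median of 6.29 CPM, the castrated boars from 10.8 to 33.3 CPM with a median of 22.8 CPM, and the sows from 9.48 to 28.9 CPM. All 7 uncastrated boars thus lay below all 8 castrated boars, as they did for 0.121% of all genes. In control libraries only the difference in NR4A1 was -1.18 (edgeR adjusted p = 0.141). In the comparison over all treatments it was the only 1 of 9 immediate early and handling genes called, where 1.88% of all genes were.

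TSPAN4, from the list of clock-controlled liver outputs, was higher under Sustanon than in controls by 0.49 (SE 0.13, edgeR adjusted p = 0.0347) and higher in uncastrated than in castrated boars by 0.43 (SE 0.11, adjusted p = 0.0476). Its median was 69.5 CPM under Sustanon (40.2 to 79.9), 47.2 CPM in controls (35.9 to 56.7) and 48.4 CPM under Myodin (33.9 to 57.5). It was 1 of 16 genes of that list called in each comparison, where 5.07% and 1.88% of all genes were called. Both calls stood near the threshold. Leaving out single libraries lost the Sustanon call in 10 of 24 cases and the class call in 19 of 24 (edgeR adjusted p up to 0.0852 and 0.0997). Without the 3 control libraries at odds with their labelled sex the adjusted p-values were 0.147 and 0.0601 by edgeR, and the class call was also lost with RLE (0.0520), with no filter (0.0677), with no treatment term (0.326) and in control libraries only (0.214). The Sustanon call was also lost by limma (0.0949) and without uncastrated boars (0.0904). APOA2, a protein of high-density lipoprotein on the hepatocyte marker list, was higher under Sustanon than in controls by 1.07 (edgeR adjusted p = 0.0251), with medians of 1258 and 620 CPM, and was 1 of 8 of its list called. Without the 3 control libraries APOA2 had 0.98 (edgeR adjusted p = 0.170), and the call was lost in 6 of 24 cases with single libraries left out (adjusted p up to 0.0616).

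FKBP5 and ZBTB16 were not called between treatments. FKBP5 had a median of 437 CPM under Sustanon (237 to 579.7), 212 CPM in controls (123 to 320.2) and 139 CPM under Myodin (32.8 to 434). ZBTB16 had medians of 73.1, 51.4 and 16.4 CPM in the same order. For Sustanon against control 0 of 6 clock kinase and turnover genes, 0 of 7 glucocorticoid-responsive genes, 0 of 7 feeding genes, 0 of 9 handling genes and 0 of 5 temperature-responsive genes were called, where 5.07% of all genes were.

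In the castration interactions NPAS2, a relative of CLOCK, had -1.76 for Sustanon (SE 0.53, edgeR adjusted p = 0.340), with 7.29 and 8.74 CPM in the control uncastrated boars and 2.08 and 2.76 CPM in the Sustanon ones. The share of all genes separating these boars in that direction was not computed, and in the other direction it was 25.1%. CIART had 1.94 for Myodin (SE 0.61, edgeR adjusted p = 0.213). The row listed as TIMELESS held 256 to 584 CPM, more than any of the 4 clock genes in any library.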
